A study of Homo sapiens with 6 samples.

Results

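The MHC class I antigen presentation genes described here are HLA-B, HLA-C, HLA-E, B2M, TAP1, TAP2, TAPBP, ERAP1 and NLRC5, 9 genes chosen by name and matched to the Ensembl identifiers of the tables through GENCODE release 29. All 9 were listed in at least 3 libraries, of 19746 genes in all. Their transcripts were quantified by RNA-Seq of SW480 cells, a colorectal cancer line of human origin that is long established, in 3 groups of 2 libraries each. One group carried a nontargeting hairpin (shNT), and the others carried 1 of 2 hairpins against PCYT2 (shPcyt2-1 and shPcyt2-2), the enzyme that makes CDP-ethanolamine for phosphatidylethanolamine synthesis. The hairpins were delivered by lentivirus in a pLKO.1 vector and cells were selected with puromycin. Each of the 3 groups thus carries a vector. Nothing in the labels says that the 2 libraries of a group came from separate cultures, so every p-value measures only the spread between these libraries, which may be technical. The experiment asked which genes change downstream of PCYT2.

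MHC class I molecules show short peptides from inside the cell to CD8+ T cells. A heavy chain (HLA-B and HLA-C are classical ones, HLA-E a nonclassical one that natural killer cells also read) pairs with the light chain β2-microglobulin, the product of B2M, in the endoplasmic reticulum. The transporter TAP1-TAP2 pumps peptides in from the cytosol, tapasin (TAPBP) holds empty class I molecules at the transporter and edits their peptides, and the aminopeptidase ERAP1 trims the peptides. NLRC5 is the transactivator of class I genes, and it acts at promoters with the RFX, CREB/ATF and NF-Y factors, while interferon and NF-kB signals act through elements of their own. Colorectal tumors are known to lose class I presentation in various ways, mutation of B2M among them.

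The proximal promoters show which of these inputs each member has in its sequence. RefSeq windows (GRCh38.p14, 250 bases before to 50 bases after an annotated start) were found for 7 of the 9 members. HLA-E and NLRC5 had no entry. The 4 printed are those of B2M and TAPBP, the members that passed a test below, and of HLA-B and HLA-C, the members with the lowest values. Capitals mark the CCAAT box bound by NF-Y (CCAAT), a half-site of the CRE (TGACG), an interferon element (GAA or GAAA, then 2 bases of any kind, then GAAA) and a kB element (GGG, then 2 bases of any kind, then TTCC or TTTCC), searched on both strands, with overlapping matches shown as 1 run of capitals.
B2M (chr15:44711267-44711566, plus strand): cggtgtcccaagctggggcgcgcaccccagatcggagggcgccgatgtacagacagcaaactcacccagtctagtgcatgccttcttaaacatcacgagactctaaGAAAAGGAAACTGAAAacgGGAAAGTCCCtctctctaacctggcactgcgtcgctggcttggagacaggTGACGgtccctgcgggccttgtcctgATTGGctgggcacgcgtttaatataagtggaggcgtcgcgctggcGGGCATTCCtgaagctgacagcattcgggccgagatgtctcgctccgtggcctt
TAPBP (chr6:33314029-33314328, minus strand): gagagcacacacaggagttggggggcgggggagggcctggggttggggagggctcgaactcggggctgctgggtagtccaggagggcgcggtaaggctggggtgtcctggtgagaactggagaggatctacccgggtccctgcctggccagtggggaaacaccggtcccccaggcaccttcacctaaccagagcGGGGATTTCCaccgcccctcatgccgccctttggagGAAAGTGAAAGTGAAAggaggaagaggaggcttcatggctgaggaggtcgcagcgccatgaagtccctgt
HLA-B (chr6:31357130-31357429, minus strand): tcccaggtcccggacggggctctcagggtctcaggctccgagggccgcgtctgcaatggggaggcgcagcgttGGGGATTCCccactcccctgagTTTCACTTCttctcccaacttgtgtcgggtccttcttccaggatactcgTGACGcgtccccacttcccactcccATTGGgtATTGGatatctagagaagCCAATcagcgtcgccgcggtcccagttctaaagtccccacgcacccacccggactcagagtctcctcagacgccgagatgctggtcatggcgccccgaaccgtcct
HLA-C (chr6:31272043-31272342, minus strand): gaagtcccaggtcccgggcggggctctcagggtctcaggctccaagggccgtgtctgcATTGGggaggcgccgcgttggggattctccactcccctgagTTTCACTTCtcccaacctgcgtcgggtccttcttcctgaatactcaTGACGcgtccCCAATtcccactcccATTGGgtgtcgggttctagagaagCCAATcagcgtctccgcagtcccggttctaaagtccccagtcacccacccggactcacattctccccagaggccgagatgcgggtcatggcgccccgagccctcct
Of 34943 RefSeq promoter windows of the same length, 34.6% hold the CCAAT box, 24.5% the CRE half-site, 10.6% the interferon element and 7.88% the kB element. All 4 kinds stand in 0.0401% of the windows (14), and B2M and HLA-B are among them. HLA-C has all but the kB element, and TAPBP has the interferon and kB elements and neither of the others. TAP1 in its first window and ERAP1 in its first window hold every kind but the CRE half-site. TAP2 holds the CRE half-site and the interferon element. A match is a description of the letters and does not show that a factor is bound there.

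The hairpin target was lower with both hairpins. PCYT2 was at 11.6 and 13.8 FPKM (a level scaled for gene length and for the size of the library) in the shNT libraries, at 7.11 and 7.36 FPKM with shPcyt2-1 and at 6.71 and 6.18 FPKM with shPcyt2-2. No knockdown library reached the level of either control. Relative to shNT, the log2 fold change for shPcyt2-1 was -0.73 (limma, adjusted p = 0.00205). It was -0.88 for shPcyt2-2 (limma, adjusted p = 0.00261). The mean levels were 0.570 and 0.508 of that in shNT. Fold changes here are differences of log2(FPKM + 1), which understate the change of genes with low values. Adjusted p-values are over all 12756 genes with a mean of at least 0.5 FPKM, and a gene is called where its adjusted p is under 0.05.

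The cells carried the epithelial markers of their line. Summed over 10 markers (EPCAM, CDH1, KRT8, KRT18, KRT19, KRT20, CDX1, CDX2, VIL1 and CDH17), the level was 8213 and 8772 FPKM with shNT, 8434 and 8527 FPKM with shPcyt2-1, and 6261 and 6558 FPKM with shPcyt2-2, with KRT8 the most abundant gene in every library. KRT20 was not listed in 3 libraries. The sum was lower in both shPcyt2-2 libraries than in the other 4, and KRT8, KRT18 and KRT19 made up between 93.8% and 96.2% of it in each library. These 3 keratins were called lower with shPcyt2-2, CDH17 was called higher (0.50, limma adjusted p = 0.0212), and the median over the 9 tested markers was 0.11. With shPcyt2-1, CDX2 was called lower (-0.65, limma adjusted p = 0.00138). The leukocyte markers PTPRC, MS4A1 and ITGAM were not listed in any library, and CD68, between 16.0 and 22.7 FPKM, was the most abundant of the 11 leukocyte markers. Of the 5 tested, CD8A was called higher with shPcyt2-1 (0.47, limma adjusted p = 0.0238). The 6 fibroblast markers summed to 2.25 and 2.44 FPKM with shNT, to 3.62 and 4.10 FPKM with shPcyt2-1, and to 3.78 and 3.56 FPKM with shPcyt2-2, so that all 4 knockdown libraries lay above both shNT libraries. The most abundant of them on average, LUM, was called higher with shPcyt2-1 (0.81, limma adjusted p = 0.00192). The part of these markers in the class I results was not tested. Endothelial markers summed to between 0.513 and 0.769 FPKM over 3 genes. In RNA from whole cultures, fewer cells with a transcript and less of it per cell cannot be told apart.

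The members differed widely in level, and the light chain stood far above the others. In shNT cells B2M was at 21.1 ± 5.88 FPKM (SD, n = 2), above 85.2% of all 19746 genes. HLA-E followed at 4.23 ± 0.0194 FPKM (SD, n = 2), then ERAP1 at 3.14 ± 0.281 FPKM (SD, n = 2) and TAPBP at 2.33 ± 0.172 FPKM (SD, n = 2). Below 1 FPKM came NLRC5 at 0.662 ± 0.110 FPKM (SD, n = 2), TAP1 at 0.569 ± 0.0508 FPKM (SD, n = 2) and TAP2 at 0.452 ± 0.0755 FPKM (SD, n = 2). HLA-C at 0.280 ± 0.0336 FPKM (SD, n = 2) and HLA-B at 0.235 ± 0.0620 FPKM (SD, n = 2) were the lowest, above 31.2% and 29.9% of the genes. Neighbours in this order overlapped in their shNT libraries, namely NLRC5 with TAP1 and HLA-C with HLA-B. The members on chromosome 6 shared their values with 4 to 7 other identifiers, B2M with 1, and ERAP1 and NLRC5 with none. How such copies affect a level was not tested, so the order is that of the deposited values.

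**Figure D1:**
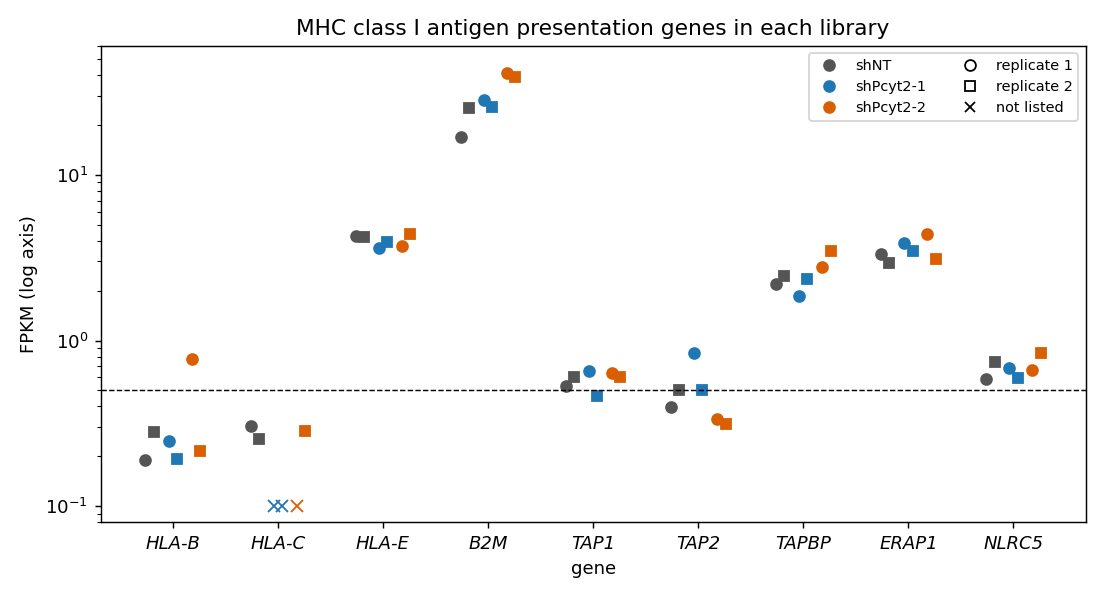
Level of each member in FPKM (log axis) in each of the 6 libraries, with the hairpin by colour and the replicate by symbol. Crosses at the bottom mark libraries that do not list the gene, and the dashed line marks a level of 0.5 FPKM, since genes with a lower mean over the 6 libraries were not tested. B2M is the highest member in each library, and HLA-B stands out in 1 shPcyt2-2 library at 0.771 FPKM.

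Of the 9 members, 6 had a mean of at least 0.5 FPKM over the 6 libraries and were tested. HLA-B, HLA-C and TAP2, with means of 0.316, 0.141 and 0.482 FPKM, were not. TAP2 lay just under that limit and TAP1 just above it, at 0.582 FPKM. With shPcyt2-1, 0 of the 6 tested members were called, against 26.7% of all tested genes. An unadjusted limma p under 0.05 was found for 1 of the 6, and for 5211 of all 12756 tested genes. With shPcyt2-2, 1 of 6 was called, against 12.4% of all tested genes. There 2 of the 6 had an unadjusted limma p under 0.05, and so had 3971 of all tested genes. Between the hairpins 2 of 6 were called, both higher with shPcyt2-2, against 27.1% of all tested genes. The members' median log2 fold change was -0.01 with shPcyt2-1 and 0.13 with shPcyt2-2, beside 0.07 and 0.04 over all tested genes. Without any test, 2 of the 6 members had both shPcyt2-1 libraries above shNT and 1 had both below, against 43.3% and 25.6% of all tested genes. For shPcyt2-2, 2 of 6 had both libraries above shNT, against 35.1% of all tested genes. The comparisons with shNT share the shNT libraries, so they are not independent of each other.

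B2M, the class I light chain, had the largest fold changes among the 6 tested members (ENSG00000166710, chr15:44711487-44718877, GRCh38). It was at 17.0 and 25.3 FPKM with shNT, at 28.5 and 25.7 FPKM with shPcyt2-1, and at 40.9 and 38.8 FPKM with shPcyt2-2. Both shPcyt2-2 libraries lay above the other 4, and both shPcyt2-1 libraries lay above both shNT libraries, the lower of them by a small margin. With shPcyt2-2 the mean level was 1.89 times the shNT mean, and the log2 fold change was 0.91 (standard error 0.15, 95% interval 0.57 to 1.25, limma adjusted p = 0.00901). With shPcyt2-1 the mean level was 1.28 times the shNT mean, and the log2 fold change of 0.37 was not called (95% interval 0.03 to 0.70, limma adjusted p = 0.0966). The hairpins differed from each other by 0.54 on the log2 scale (95% interval 0.21 to 0.88, limma adjusted p = 0.0254). That difference was not called without shPcyt2-1 replicate 2 (0.47, limma adjusted p = 0.0712), without shPcyt2-2 replicate 1 (0.51, limma adjusted p = 0.128), without shPcyt2-2 replicate 2 (0.58, limma adjusted p = 0.101), with robust variance shrinkage (limma adjusted p = 0.0671) or with no limit on the mean level (limma adjusted p = 0.131). The shNT libraries were the most uneven pair for B2M. With only shNT replicate 1 as control, the log2 fold change with shPcyt2-1 was 0.64, and with only shNT replicate 2 it was 0.09. Wherever leaving out a library leaves a group with 1, the other groups alone give the spread of that fit. The shPcyt2-2 call was lost when shPcyt2-2 replicate 1 was left out (0.87, limma adjusted p = 0.0943) or replicate 2 was left out (0.95, limma adjusted p = 0.0522), and with no limit on the mean level (limma adjusted p = 0.0853).

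HLA-E, the single heavy chain among the tested members, was not called with either hairpin. The gene (ENSG00000204592, chr6:30489467-30494205) was at 4.25 and 4.22 FPKM with shNT, at 3.59 and 3.91 FPKM with shPcyt2-1, and at 3.70 and 4.40 FPKM with shPcyt2-2. Its libraries with shPcyt2-1 lay below shNT and those with shPcyt2-2 straddled it. The log2 fold change was -0.14 (95% interval -0.38 to 0.10) and -0.05 (95% interval -0.29 to 0.19). The ratio of the B2M level to the HLA-E level was 4.0 and 6.0 with shNT, 7.92 and 6.57 with shPcyt2-1, and 11.1 and 8.82 with shPcyt2-2. That ratio, taken within each library and so free of the library's scaling, was highest in the 2 shPcyt2-2 libraries and lowest in the 2 shNT libraries.

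HLA-B and HLA-C had the lowest levels of the members in shNT cells. HLA-B (ENSG00000234745, chr6:31269491-31357188) was at 0.191 and 0.279 FPKM with shNT, at 0.249 and 0.192 FPKM with shPcyt2-1, and at 0.771 and 0.215 FPKM with shPcyt2-2. The single high library, shPcyt2-2 replicate 1, set its group apart, and the other 5 libraries lay within a narrow range. HLA-C (ENSG00000204525, chr6:31268749-31272130) was at 0.304 and 0.256 FPKM with shNT, was not listed in either shPcyt2-1 library or in shPcyt2-2 replicate 1, and was at 0.286 FPKM in shPcyt2-2 replicate 2. Both genes belong to a family with close copies, and the annotated span of HLA-B covers most of HLA-C on the same strand, so the split of fragments between them is uncertain. Both were under the limit for testing, so no fold is given, and with no limit on the mean level neither was called with either hairpin.

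Tapasin differed between the hairpins. TAPBP (ENSG00000231925, chr6:33299694-33314387) was at 2.20 and 2.45 FPKM with shNT, at 1.84 and 2.35 FPKM with shPcyt2-1, and at 2.76 and 3.49 FPKM with shPcyt2-2. Both shPcyt2-2 libraries lay above the other 4. Against shNT the log2 fold change was 0.31 with shPcyt2-2 (95% interval 0.02 to 0.60, limma adjusted p = 0.143). It was -0.11 with shPcyt2-1 (limma adjusted p = 0.563), so neither was called. The difference between the hairpins was 0.41 (95% interval 0.12 to 0.70, limma adjusted p = 0.0419). That call was lost when any 1 of 4 libraries was left out, among them shPcyt2-1 replicate 1 (0.30, limma adjusted p = 0.264) and shPcyt2-2 replicate 2 (0.29, limma adjusted p = 0.203), and it was just lost without either shNT library, where the adjusted p was 0.0519 and 0.0523 from limma. It was also lost with no limit on the mean level (limma adjusted p = 0.130) and with only the 2 hairpin groups in the fit (limma adjusted p = 0.0522). After a trend on GC content and gene length was removed, TAPBP was called with shPcyt2-2 against shNT (0.44, limma adjusted p = 0.0385).

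The peptide transporter was low in every library. TAP1 (ENSG00000168394, chr6:32845209-32853978) was at 0.533 and 0.605 FPKM with shNT, at 0.656 and 0.463 FPKM with shPcyt2-1, and at 0.635 and 0.603 FPKM with shPcyt2-2. The groups overlapped, and the log2 fold changes were -0.01 (95% interval -0.27 to 0.24) and 0.05 (95% interval -0.21 to 0.30). TAP2 (ENSG00000204267, chr6:32821833-32838780) was at 0.398 and 0.505 FPKM with shNT, at 0.841 and 0.50 FPKM with shPcyt2-1, and at 0.335 and 0.312 FPKM with shPcyt2-2. Its 2 shPcyt2-2 libraries were the lowest and 1 shPcyt2-1 library was the highest, and with no limit on the mean level it was not called with either hairpin. The whole annotated span of TAP1 lies within that of PSMB9 on the opposite strand, and TAP2 lies within that of a second annotated coding gene on its own strand, so both values may hold fragments of a neighbour.

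ERAP1 and NLRC5 did not pass the test with either hairpin. The trimming enzyme ERAP1 (ENSG00000164307, chr5:96760810-96808100) was at 3.34 and 2.95 FPKM with shNT, at 3.87 and 3.47 FPKM with shPcyt2-1, and at 4.39 and 3.09 FPKM with shPcyt2-2. Both shPcyt2-1 libraries were above shNT, and the shPcyt2-2 libraries overlapped it. The log2 fold changes were 0.17 (95% interval -0.14 to 0.49) and 0.18 (95% interval -0.13 to 0.50). The transactivator NLRC5 (ENSG00000140853, chr16:56989485-57083531) was at 0.585 and 0.740 FPKM with shNT, at 0.687 and 0.597 FPKM with shPcyt2-1, and at 0.665 and 0.836 FPKM with shPcyt2-2. The groups overlapped, and the log2 fold changes were -0.02 (95% interval -0.27 to 0.24) and 0.07 (95% interval -0.18 to 0.33). ERAP1 overlaps CAST on the opposite strand, so its value may hold fragments of that gene.

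**Figure D2:**
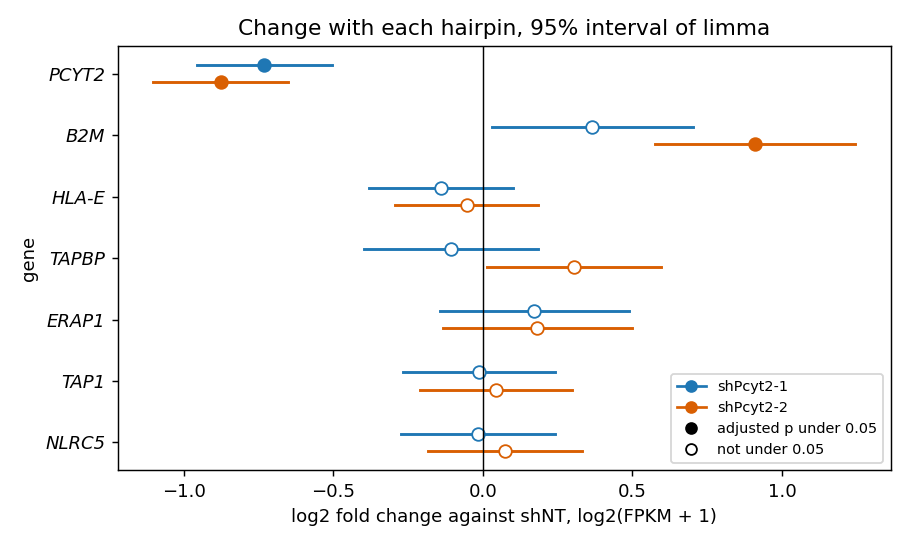
Log2 fold change against shNT on the log2(FPKM + 1) scale for PCYT2 and the 6 tested members, with the 95% interval of limma, 1 colour for each hairpin. Filled points are called (adjusted p under 0.05) and open points are not. PCYT2 is below 0 with both hairpins, B2M is called with shPcyt2-2 (0.91), and the other members have open points.

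With both hairpins taken as 1 group of 4 libraries, 0 of the 6 members were called, against 0.00784% of all tested genes. In this pooled comparison 1 of the 6 had an unadjusted limma p under 0.05, and so had 2128 of all 12756 tested genes. B2M was 0.64 higher there on the log2 scale (limma adjusted p = 0.233), or 0.36 higher without shNT replicate 1, and all 4 knockdown libraries lay above both shNT libraries, as they did for 20.7% of all tested genes. PCYT2 itself was not called there either (-0.80, limma adjusted p = 0.115). When the mean of both hairpins was tested with the hairpins as separate groups, B2M was called (limma adjusted p = 0.0151).

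The lists around the pathway were counted whole, in the order in which an antigen passes through it. Each list is set beside the share of all tested genes called, which was 16.5% higher and 10.1% lower with shPcyt2-1, and 7.69% higher and 4.74% lower with shPcyt2-2. The list counts at an unadjusted limma p under 0.05 are for shPcyt2-2, where 3971 of all 12756 tested genes had such a p. The split depends on the scaling. As deposited, 2109 genes were higher and 1291 lower with shPcyt2-1, against 1476 and 1713 with median-ratio scaling. With shPcyt2-2 it was 981 and 604, against 760 and 845. With no limit on the mean level, 0 genes of the pathway lists were called with shPcyt2-2 against shNT. With shPcyt2-1 that setting left 1 called gene in place of 4 in the endoplasmic reticulum list and 1 in place of 2 among the proteasome genes, and the calls of LAP3 and NFYB were lost. No statement that a list stands apart from other genes is made from these counts.

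The proteasome cuts the peptides. Among the immunoproteasome subunits and proteasome activators, 2 of 5 tested genes rose with shPcyt2-1, 0 of 5 passed with shPcyt2-2 (3 had an unadjusted limma p under 0.05), and none fell. They were PSME3, which encodes the nuclear activator PA28γ, at 38.7 and 38.7 FPKM with shNT and 58.5 and 56.1 FPKM with shPcyt2-1 (log2 fold change 0.55, limma adjusted p = 0.00131), and PSME2, a subunit of the interferon-inducible activator PA28αβ (0.34, limma adjusted p = 0.0274). PSME1, the other subunit of that activator, was at 81.6 and 87.2 FPKM with shNT, at 68.7 and 58.4 FPKM with shPcyt2-1 (-0.41, limma adjusted p = 0.196), and at 48.8 and 90.4 FPKM with shPcyt2-2 (-0.34, limma adjusted p = 0.323). Both its shPcyt2-1 libraries lay below shNT, and it was not called with either hairpin. The values of the catalytic immunoproteasome subunits were low beside those of the constitutive ones they replace. PSMB8 and PSMB9 each shared their values with 7 other identifiers, whereas PSMB5, PSMB6, PSMB7 and PSMB10 shared theirs with none. How such copies affect a level was not tested. PSMB8 was at 0.666 to 0.819 FPKM over the 6 libraries, and its level was 0.00681 to 0.00793 of that of PSMB5. PSMB9 was at 0.485 FPKM or less in all but 1 library, shPcyt2-2 replicate 1 at 0.499 FPKM, and was not listed in shPcyt2-1 replicate 1. PSMB10 was higher, at 15.1 to 19.7 FPKM, or 0.131 to 0.204 of PSMB7. Of the 3 constitutive subunits PSMB7 rose with shPcyt2-1 (0.36, limma adjusted p = 0.00306), and 0 passed with shPcyt2-2 (0 had an unadjusted limma p under 0.05). PSMB7 stayed called with each library left out, whereas PSME2 was not called without shNT replicate 1, without shNT replicate 2 or without shPcyt2-1 replicate 1.

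Cytosolic peptidases destroy or shorten peptides before transport. Of 6 tested, LAP3, a leucine aminopeptidase, rose with shPcyt2-1 (0.39, limma adjusted p = 0.0152), and 0 of 6 passed with shPcyt2-2, where 2 had an unadjusted limma p under 0.05. The LAP3 call was lost without shNT replicate 2 or either shPcyt2-1 library.

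In the endoplasmic reticulum the chaperones and export factors of class I rose in part. With shPcyt2-1, 4 of 9 tested genes rose and 0 fell, and the list's median log2 fold change was 0.22. SAR1A, a GTPase of the COPII coat, went from 7.85 and 7.05 FPKM to 10.3 and 10.3 FPKM (0.42, limma adjusted p = 0.00958). The lectin chaperone CANX (0.32, limma adjusted p = 0.0339) and PDIA3, the ERp57 of the loading complex (0.22, limma adjusted p = 0.0308), also rose, as did the export receptor BCAP31 (0.18, limma adjusted p = 0.0373). With shPcyt2-2, 2 of 9 rose and 0 fell, with a median of 0.11. PDIA3 went from 53.5 and 53.4 FPKM to 73.7 and 70.3 FPKM (0.42, limma adjusted p = 0.00674), and HSPA5, the general chaperone BiP, from 97.2 and 95.3 FPKM to 131 and 121 FPKM (0.38, limma adjusted p = 0.00802). PDIA3 was called with both hairpins. CALR, the calreticulin of the same complex, was at 151 and 162 FPKM with shNT and at 143 and 134 FPKM with shPcyt2-2 (-0.18, limma adjusted p = 0.0956). With shPcyt2-1 the 4 calls fell to 0 when either shPcyt2-1 library was left out, to 2 without shNT replicate 1 and to 1 without shNT replicate 2, and with shPcyt2-2 the 2 calls fell to 0 without shPcyt2-2 replicate 1.

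The further class I heavy chains and class I-like chains, several of which also pair with β2-microglobulin, rose in part as well. Of 7 genes over the limit, HFE reached it only through the shPcyt2-2 libraries. Of the other 6, 3 rose with shPcyt2-2 and 0 fell, with a median log2 fold change of 0.28. With shPcyt2-1, 1 of the 6 rose and 0 fell, with a median of -0.07. MR1, which presents vitamin B metabolites to MAIT cells, was at 0.926 and 0.870 FPKM with shNT, at 0.899 and 0.914 FPKM with shPcyt2-1, and at 1.75 and 1.46 FPKM with shPcyt2-2 (0.45, limma adjusted p = 0.0300). HFE, the iron regulator mutated in hemochromatosis, was at 0.419 and 0.324 FPKM with shNT and at 0.905 and 0.747 FPKM with shPcyt2-2, and its call there is not counted. FCGRT, the heavy chain of the neonatal Fc receptor, was at 35.5 and 38.1 FPKM with shNT, at 32.0 and 32.4 FPKM with shPcyt2-1, and at 48.3 and 44.4 FPKM with shPcyt2-2 (0.33, limma adjusted p = 0.0227). AZGP1, a secreted class I-like protein that does not use β2-microglobulin, rose by 0.26 (limma adjusted p = 0.0477). MICB, a stress ligand of the receptor NKG2D that does not use β2-microglobulin either, was the gene that rose with shPcyt2-1 (0.42, limma adjusted p = 0.0182), and its call was lost without any 1 of the shNT and shPcyt2-1 libraries. The 3 calls with shPcyt2-2 fell to 0 when either shPcyt2-2 library was left out, to 1 without either shNT library and to 2 without either shPcyt2-1 library.

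Both hairpins were also compared directly for these class I-like chains, and 3 of the same 6 were higher with shPcyt2-2. FCGRT differed by 0.51 (95% interval 0.35 to 0.67, limma adjusted p = 0.00134), MR1 by 0.45 (limma adjusted p = 0.0158) and AZGP1 by 0.44 (limma adjusted p = 0.00314). In their shPcyt2-2 libraries these 3 genes, B2M and TAPBP all lay above both shPcyt2-1 libraries, as did 30.7% of all tested genes. All of them were called higher in this same comparison, which nearly fixes that position, so it adds nothing to the calls. In that same comparison the called share was 12.9% higher and 14.2% lower among all tested genes.

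The factors that act on class I promoters with NLRC5 differed widely in level. RFXANK, a subunit of the RFX complex, was at 52.3 to 79.4 times the NLRC5 level in FPKM over the 6 libraries. RFXAP, another subunit, was at 1.52 to 2.21 FPKM, beside 0.585 to 0.836 FPKM for NLRC5. Of 8 tested promoter factors, NFYB, a subunit of NF-Y, rose with shPcyt2-1 (0.41, limma adjusted p = 0.0302). With shPcyt2-2, 0 of 8 passed, and 1 had an unadjusted limma p under 0.05. The NFYB call was lost without shNT replicate 2 or either shPcyt2-1 library. CIITA, the class II counterpart of NLRC5, was at 0.113 FPKM or less in every library and was not tested.

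Interferon and NF-kB inputs moved singly against shNT. Of 17 genes over the limit, JAK2 reached it only through the shPcyt2-1 libraries. Of the other 16, 1 rose and 0 fell with shPcyt2-1, and 1 rose and 1 fell with shPcyt2-2. Between the hairpins, 4 of the 16 were called higher with shPcyt2-2 and 2 lower, against 12.9% and 14.2% of all tested genes. JAK1, the kinase shared by interferon receptors, went from 18.5 and 16.4 FPKM with shNT to 24.2 and 22 FPKM with shPcyt2-1 (0.38, limma adjusted p = 0.0193) and to 25.2 and 21.9 FPKM with shPcyt2-2 (0.41, limma adjusted p = 0.0280). JAK2, a kinase of the interferon-γ receptor, had mean levels of 0.386 FPKM with shNT, 0.750 FPKM with shPcyt2-1 and 0.524 FPKM with shPcyt2-2, and its call with shPcyt2-1 is not counted. IRF1, an interferon-induced activator of class I genes, was at 11.1 and 12.8 FPKM with shNT, at 13.2 and 12.7 FPKM with shPcyt2-1 and at 10.96 and 12.03 FPKM with shPcyt2-2. RELB, a subunit of the noncanonical NF-kB pathway, was at 12.6 and 15.4 FPKM with shNT, at 14.7 and 15.1 FPKM with shPcyt2-1, and at 9.76 and 9.13 FPKM with shPcyt2-2, and it fell with shPcyt2-2 (-0.52, limma adjusted p = 0.0151). Without shPcyt2-2 replicate 1 or without replicate 2, neither JAK1 nor RELB was called with shPcyt2-2, and without shNT replicate 2 none of the 16 was called with either hairpin. The JAK1 call with shPcyt2-1 was also lost without shPcyt2-1 replicate 1.

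**Figure D3:**
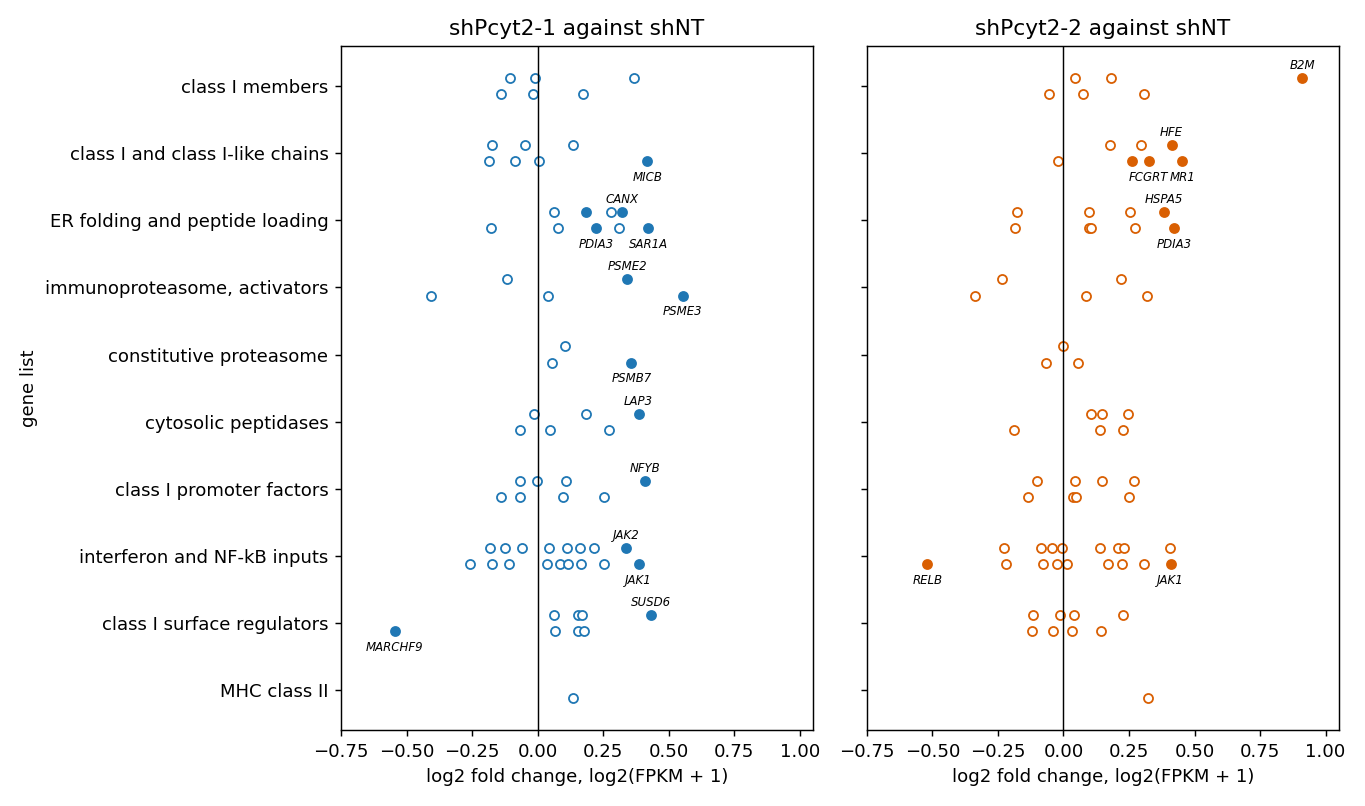
Log2 fold change against shNT on the log2(FPKM + 1) scale for every tested gene of the members and of the pathway lists, with shPcyt2-1 on the left and shPcyt2-2 on the right. Filled points are called (adjusted p under 0.05), and the called genes are named except BCAP31 (shPcyt2-1) and AZGP1 (shPcyt2-2). The B2M point with shPcyt2-2 (0.91) lies farther to the right than the points of the lists.

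Factors that lower class I at the cell surface or shape it were measured too. Of 8 tested, SUSD6, part of a complex that targets class I for lysosomal degradation, rose with shPcyt2-1 from 5.65 and 5.69 FPKM to 8.14 and 7.85 FPKM (0.43, limma adjusted p = 0.00868). MARCHF9, a ubiquitin ligase that takes class I off the surface, was at 7.92 and 9.93 FPKM with shNT and fell to 6.12 and 5.43 FPKM with shPcyt2-1 (-0.55, limma adjusted p = 0.0101). With shPcyt2-2, SUSD6 was at 5.42 and 5.55 FPKM, MARCHF9 was at 8.29 and 7.92 FPKM, and 0 of the 8 were called (1 had an unadjusted limma p under 0.05). The MARCHF9 call was lost without shNT replicate 2 or without shPcyt2-1 replicate 2, and the SUSD6 call was lost without shPcyt2-1 replicate 1.

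MHC class II genes were low or not listed, apart from CD74. Of 11 class II chains and helpers, 7 were listed in at least 1 library, and CD74, the invariant chain, was the single one with a mean of at least 0.5 FPKM. CD74 was at 4.19 and 4.51 FPKM with shNT, at 4.69 and 5.07 FPKM with shPcyt2-1, and at 5.70 and 5.66 FPKM with shPcyt2-2. Its log2 fold change was 0.14 (limma adjusted p = 0.309) and 0.32 (limma adjusted p = 0.0561).

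The members did not vary as 1 block over the 6 libraries. Pearson's r between pairs of the 6 tested members ran from -0.86 (HLA-E with ERAP1) to 0.65 (TAPBP with NLRC5), as a description over 6 libraries that share their scaling and their groups. B2M had an r of 0.62 with TAPBP, 0.63 with NLRC5 and -0.25 with HLA-E. The genes outside the lists whose levels ran most like the mean standardised profile of the 6 members were PLAC1 (r = 0.98), CEACAM21 (0.96), CORO7-PAM16 (0.96), PTGES (0.96) and PMEPA1 (0.95), out of 4423 genes over 6 libraries. PLAC1, for instance, was at 0.805 and 1.16 FPKM with shNT, at 1.04 and 0.947 FPKM with shPcyt2-1, and at 1.68 and 1.88 FPKM with shPcyt2-2. CORO7-PAM16 is a readthrough of neighbouring genes that was not listed in 3 libraries, so its value is uncertain.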

How the data were processed

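RNA-Seq of 6 SW480 libraries was used. The authors deposited 1 table per library with Ensembl identifiers and a value read as FPKM, since values are not whole and sum to between 396467 and 402612. TPM counted over a subset of genes would look alike. Only values above 0 are listed. RNA was extracted with TRIzol and a company made and sequenced the libraries. The labels name 2 library kits without assigning them. They list the builds GRCh38, GRCm38 and mm10 with no roles, and the aligner and counter are not given in the sources used here. Whether strand was used in counting is not given either.

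Repeated rows were summed (115 identifiers of 21539), and identifiers with identical values in at least 3 libraries were merged (999 groups), which left 19746 genes. All members but ERAP1 and NLRC5 shared their values with identifiers of alternate haplotypes or copies. Genes with a mean of at least 0.5 FPKM (12756) entered a two-sided test in limma 3.58.1 (R 4.3.3). It used log2(FPKM + 1), modelled the variance with a trend on the mean, and adjusted p by Benjamini-Hochberg. Single hairpins came from a fit with 3 groups, and the pooled comparison from a fit with 2. The fits were also run on simulated data with independent libraries and the same planted change with both hairpins. That simulation held no difference between hairpins and no shared replicate effect, so it cannot show how the fits handle these. A count-based test, which the study's methods name, was left out since FPKM values are no counts.

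The members and lists were chosen with earlier results of these data known. Members were always named. A gene of the lists is not reported here and was left out of the counts. Of each list, up to 3 higher and 3 lower called genes per hairpin were named by size of change, provided the hairpin's libraries lay on one side of both shNT libraries, together with genes whose function was needed. BCAP31 and AZGP1 fall outside the first part of that rule. Genes of like profile needed a range of at least 0.5 on the log2 scale. Read depth is unknown. A rough estimate from the smallest values of genes with 1 transcript placed the libraries (in megafragments) at 26.6 and 26.2 with shNT, 18 and 26.3 with shPcyt2-1 and 24.4 and 22 with shPcyt2-2, the lowest being shPcyt2-1 replicate 1. No counting interval is given. Alternatives covered the pseudocount, the limit, scaling, the variance model, GC content and length, repeated and identical rows, the groups in the fit, the replicate number as a block and each library left out. Promoters came from RefSeq tables of GRCh38.p14, and figures were drawn with matplotlib 3.10.9.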

Additional observations from a re-analysis of the deposited data

Results flagged for a closer look

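For 27 genes (the members other than HLA-C, PCYT2 and the named genes of the lists) the 4 knockdown libraries were examined for a library that stands apart, by Dixon's ratio of the gap to the range. Chance flags about 1 in 20 groups. HLA-B had a ratio of 0.903, with shPcyt2-2 replicate 1 at 0.771 FPKM and the next library at 0.249 FPKM. Its mean is under the limit for testing. HLA-C was left out, since 3 of the 4 libraries do not list it.

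Some effects against shNT differed between the hairpins, by limma's test of shPcyt2-2 minus shPcyt2-1. Among the members this was so for B2M (0.54) and TAPBP (0.41). Of the named list genes, MR1 (0.45), FCGRT (0.51), PDIA3 (0.20), HSPA5 (0.31) and MARCHF9 (0.43) were higher with shPcyt2-2. SAR1A (-0.32), PSME3 (-0.33), PSMB7 (-0.42), RELB (-0.61) and SUSD6 (-0.47) were lower with shPcyt2-2. Outside the rule for naming genes, CALR was also called lower (-0.24, limma adjusted p = 0.0226) and AZGP1 higher (0.44, limma adjusted p = 0.00314). So were the interferon inputs IFNGR2 (0.56), SOCS3 (0.53), IRF2 (0.38) and IFNAR2 (0.33) and the peptidase NPEPPS (0.315), all higher. STAT2, another of these inputs, was called lower (-0.38). Among all tested genes 27.1% were called in that comparison, and the cause of the difference between hairpins was not tested.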

How the results depend on the processing

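With no limit on the mean, 0 members were called with shPcyt2-2 against shNT (B2M limma adjusted p = 0.0853) and 0 between the hairpins. With the trend on GC content and length removed, 2 were called with shPcyt2-2 against shNT. Between the hairpins 1 was called with robust limma variances (TAPBP) and 1 with only the 2 groups in the fit (B2M). With the mean of both hairpins from the fit with 3 groups, 1 was called against shNT. As each library was left out, the members called ran from 0 to 1 with shPcyt2-1, from 0 to 1 with shPcyt2-2, and from 0 to 1 between the hairpins. Leaving identical identifiers unmerged, an alternative chosen after seeing the data, changed no member's call. Uncalled members changed sign in places. Corrected for GC content and length, HLA-E was at 0.063 with shPcyt2-1, 0.094 with shPcyt2-2 and 0.079 pooled, and with shPcyt2-1 TAP1 was at 0.018, TAPBP at 0.069 and NLRC5 at 0.073. With median-ratio scaling TAP1 was at -0.0060 pooled. With each library left out, HLA-E ran from -0.15 to 0.046 with shPcyt2-2 and from -0.015 to 0.19 between the hairpins. TAP1 ran from -0.10 to 0.079 with shPcyt2-1, from -0.033 to 0.15 between the hairpins and from -0.016 to 0.057 pooled. TAPBP ran from -0.22 to 0.010 with shPcyt2-1 and from -0.012 to 0.21 pooled. ERAP1 ran from -0.018 to 0.38 with shPcyt2-2 and from -0.19 to 0.21 between the hairpins. NLRC5 ran from -0.084 to 0.051 with shPcyt2-1 and from -0.038 to 0.096 pooled. The causes were not tested. Over all genes the calls with shPcyt2-1, 3400, were 1831 with no limit and 1147 to 3256 with a library left out. Those with shPcyt2-2, 1585, were 124 with no limit, 1027 with no variance trend and 125 to 1893 with a library left out. Those between the hairpins, 3463, were 1662 to 3785 with a library left out. The pooled comparison called 1 gene, against 7 with no limit, 0 with a pseudocount of 0.1, 0 with genes of a mean of at least 1, and 2142 with the mean of both hairpins. PCYT2 stayed called with each hairpin under every alternative. DESeq2 and edgeR were not run, since the values are not counts.

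Deviations of same-numbered libraries from their group means had an r of 0.0027, 0.0619 and 0.191 between pairs of groups over 12756 genes. It was over 0.1 in 1 of 3 pairs, that of shPcyt2-1 with shPcyt2-2. The main fits treated same-numbered libraries as sharing only a number, and these values do not exclude a pairing. With the replicate number as a block, the members called were 0, 1, 2 and 0 in the comparisons of shPcyt2-1, of shPcyt2-2, between the hairpins and pooled, as without it, and the calls over all genes were 3884, 2029, 3869 and 0, against 3400, 1585, 3463 and 1.

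The 2 libraries of each group limit the precision, and values under 0.5 FPKM (HLA-B, HLA-C and TAP2) support no comparison. TAP1 and NLRC5, with means of 0.582 and 0.685 FPKM over the 6 libraries, lay little above that limit. Their fold changes rest on low values too.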
